A study of Homo sapiens with 8 samples.

Results

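The replication-dependent histone genes encode the bulk of the core histones H2A, H2B, H3 and H4 and of the linker histone H1. They were taken as every row of the deposited table whose symbol is H1-1 to H1-6 or begins with H2AC, H2BC, H3C or H4C followed by a number, with a value in at least 6 of the 8 libraries. Of 54174 symbols in the table, 66 matched by name and 62 had enough values. The other 4 (H2AC1, H2BC1, H4C6 and H4C7) were blank in every library. A level of at least 1 on the log2 scale, averaged over the 8 libraries and with no blank, was required for testing. It was met by 9016 genes, 59 histone genes among them: 5 for H1, 15 for H2A, 15 for H2B, 12 for H3 and 12 for H4. H2BC3, H3C3 and H1-6 fell below it and are described apart.

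The libraries came from 143B, an established human osteosarcoma cell line, and measured total RNA. A plasmid labelled for knockout of NELL1, the gene of a secreted matrix protein, was transfected in 4 of them, whose genotype label is NELL1 knockout, and a vector plasmid in the other 4, whose genotype label is control. All were harvested at 48 h after the same transient transfection and grown in the same medium. The labels name no clone, no selection and no share of edited cells, so each library is a pool of cells at an early time. The groups are called knockout and control by their labels alone: NELL1 itself lay near the bottom of the scale, at -6.97, -6.97, -4.53 and -5.00 in controls 1 to 4 and at -4.82, -5.87, blank and -6.96 in knockouts 1 to 4, and did not separate the groups (exact two-sided permutation test over the 7 values, p = 1).

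Cells make these histones during S phase, when new DNA has to be packed into nucleosomes, and cut the messages back when replication ends. The transcripts are the known exception among messenger RNAs in that most carry no poly(A) tail: they end just after a conserved stem-loop that is bound by SLBP, the stem-loop binding protein. Transcription is driven by NPAT, a coactivator that is activated by cyclin E with CDK2 and works through promoter-bound factors, among them OCT1 at the octamer motif of H2B promoters. Most of the genes sit in clusters, with many H2A and H2B genes arranged head to head around a shared promoter.

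The stem-loops are shown because they are the feature that sets these transcripts apart and that the choice by symbol did not use. In the GENCODE 29 transcripts, 26 of the genes had a transcript with at least 60 bases after the stop codon, and 25 of those held the stem-loop letters there, searched over 16 bases as GG, any 2 bases, CTT, any base, T, any base, AG, any 2 bases and CC. The exception was H2BC11, and H4C11 held it in a shorter end, which made 26 genes with the pattern. The remaining models mostly stop at the coding sequence, so the pattern cannot be looked for in them. Among 19615 other genes, 0.388% had these letters anywhere in their longest coding transcript, on the transcript strand. The stem-loop is in capitals, with 5 bases on each side:
H2BC6: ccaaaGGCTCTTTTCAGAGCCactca
H2BC7: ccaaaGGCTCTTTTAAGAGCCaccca
H2AC11: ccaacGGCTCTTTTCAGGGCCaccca
H3C6: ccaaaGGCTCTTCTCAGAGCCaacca
H4C2: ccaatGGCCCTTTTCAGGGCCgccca
H4C9: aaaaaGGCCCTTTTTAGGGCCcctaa
The H4 genes share a GGCCC stem, where the H2A, H2B and H3 genes with the pattern have GGCTC. In the loop, the base before AG varies among the genes, and H3C6 alone has CTTCT where the others have CTTTT.

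Promoter windows, from 250 bases before to 50 bases after the start of each gene, were matched in RefSeq (GRCh38.p14) for 57 of the genes. The octamer ATTTGCAT, on either strand, was in 10 of 14 H2A windows, 13 of 16 H2B windows and 1 of 11 H3 windows, in no H1 or H4 window, and in 1.80% of 27305 windows of all genes. The TATA box TATAAA was in 38 of the 57, against 11.95% of all windows, and the CCAAT box CCAAT was in all H1, H2A, H2B and H3 windows and in 2 of 10 H4 windows, against 35.7% of all. Both strands were searched for each, the end of CCAAT can share bases with the start of the octamer, and neighbours with facing starts share part of their windows. H2AC12, which lies next to H2BC12 on chromosome 6, had no window, so those neighbours could not be paired. Among genes with a window, an H2A and an H2B gene started back to back within 400 bases in 9 places. The stretch between the starts is given for 3 of them, on the forward strand of GRCh38 with octamers in capitals: chr6:26199294-26199515 between H2AC7 and H2BC7, chr6:27814778-27815021 between H2AC14 and H2BC14, and chr6:27838376-27838568 between H2AC15 and H2BC15, which has no octamer.
H2AC7 and H2BC7: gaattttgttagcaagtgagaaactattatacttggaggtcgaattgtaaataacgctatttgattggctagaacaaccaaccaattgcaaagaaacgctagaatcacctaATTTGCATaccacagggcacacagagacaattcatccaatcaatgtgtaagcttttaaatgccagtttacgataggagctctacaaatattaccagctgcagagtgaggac
H2AC14 and H2BC14: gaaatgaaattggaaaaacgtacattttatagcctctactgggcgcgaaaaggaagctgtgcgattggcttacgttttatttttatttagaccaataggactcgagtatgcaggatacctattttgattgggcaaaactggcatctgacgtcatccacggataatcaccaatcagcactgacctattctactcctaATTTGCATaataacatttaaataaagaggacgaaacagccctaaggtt
H2AC15 and H2BC15: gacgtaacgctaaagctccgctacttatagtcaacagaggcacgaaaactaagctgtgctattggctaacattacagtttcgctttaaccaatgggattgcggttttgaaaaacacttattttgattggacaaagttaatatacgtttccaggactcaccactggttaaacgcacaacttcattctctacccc

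The knockout libraries fell into 2 close pairs before any histone gene was considered. Over the 9016 tested genes, the SD of the difference between 2 libraries was 0.12 for knockouts 1 and 2, 0.13 for knockouts 3 and 4, and 0.46 to 0.50 between the pairs. Between a control and a knockout it was 0.355 to 0.454, so the knockout pairs lay further from each other than from the controls. Among the controls it was 0.10 for controls 1 and 2, 0.13 for controls 2 and 4, 0.19 for controls 3 and 4 and 0.29 for controls 1 and 3, without as clear a split. The labels give no batch, so replicates 1 and 2 and replicates 3 and 4 are set apart here by number only, after the split was seen, and results are given over all 8 libraries and within each set. Every library had the same distribution of values, so the values had been forced to a common scale, and all changes are relative to the other genes. No read totals are given, the depth is unknown, and the unit before the logarithm is not given in the sources used here, so levels are compared between libraries and not between genes. The design text calls the libraries of a group biological replicates without naming separate cultures, and p-values measure only the spread between these libraries. Of the markers of the cell type, VIM (10.2 to 10.9) and SPARC (5.23 to 6.15) were present, RUNX2 (0.05 to 0.43) and ALPL (-1.75 to -0.34) were low, COL1A1 was between -1.45 and 0.90, COL1A2 was at -4.82 or below or blank, and of the late osteoblast genes SP7 and IBSP were blank in all 8 libraries and BGLAP in 5. The leukocyte markers PTPRC and CD3E were blank throughout, the epithelial CDH1 and KRT19 were at -2.85 or below or blank, and the endothelial PECAM1 and CDH5 were at -3.31 or below or blank, while CD68 (5.54 to 5.90) and EPCAM (1.83 to 2.76) had values in all 8. Some markers moved with the split of the knockout libraries: the endothelial KDR was at -0.82 and -1.16 in knockouts 1 and 2 and at -4.84 and -4.65 in knockouts 3 and 4 (controls -4.73 to -2.49), COL1A1 was at -1.45 and -0.87 against 0.80 and 0.90 (controls -0.33 to 0.65), and EPCAM was lowest in knockouts 3 and 4. The part of these marker differences in the results was not tested.

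The histone genes were raised as a family in knockouts 3 and 4 and not in knockouts 1 and 2. In replicates 3 and 4, 53 of the 59 tested genes rose, none fell, and the median change was 0.95 log2 units, or 1.93-fold. Of all tested genes, 15.7% rose and 17.4% fell there. In replicates 1 and 2, 5 rose, 11 fell, 43 did not pass the test, and the median change was -0.017. Both counts are under the background, since 33% of all tested genes rose and 26.6% fell in that set. The difference between the sets itself passed the test for 54 of the 59 genes, in each case with the larger change in replicates 3 and 4. Among all tested genes it was positive for 18.4% and negative for 22.9%. Over all 8 libraries, where both sets enter with the same weight, 1 gene, H3C2, passed. In that fit 7.02% of all tested genes rose and 6.1% fell. The heatmap of all tested histone genes shows the 2 right-hand columns of each class apart from the 6 others.

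**Figure D1:**
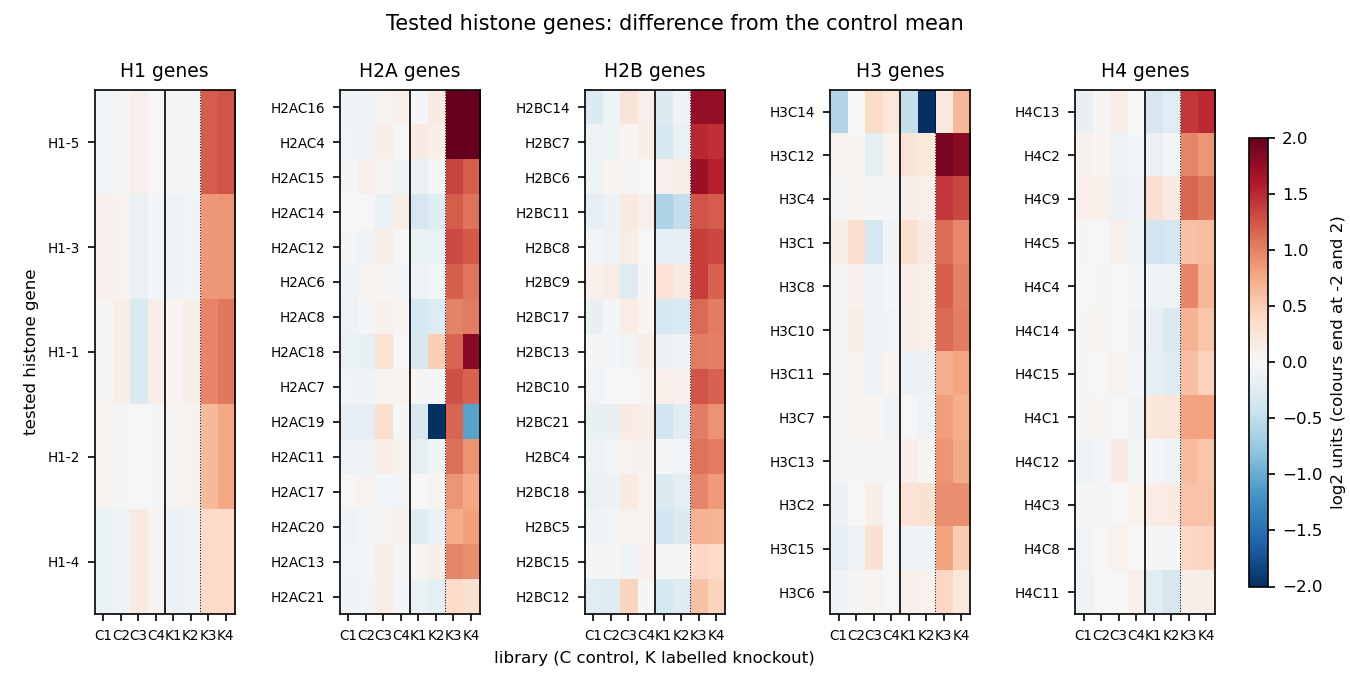
Each row is a tested histone gene and each column a library (C1 to C4 control, K1 to K4 knockout by label), with the colour giving the deposited log2 value minus the mean of the 4 controls, ended at -2 and 2. Within each class the genes are ordered by the difference between replicate sets, and K3 and K4 are red in nearly every row while K1 and K2 stay close to the controls; H2AC19 and H3C14 are blue in K2, and H2AC19 also in K4.

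Summed on the linear scale, the 59 genes had a log2 total of 13.21, 13.24, 13.41 and 13.30 in controls 1 to 4. The total was 13.16 and 13.17 in knockouts 1 and 2 and 14.21 and 14.12 in knockouts 3 and 4. Knockouts 3 and 4 thus stood above every control, and knockouts 1 and 2 lay just under the lowest one. Against the controls of the same numbers this was a ratio of 1.75 for replicates 3 and 4, while replicates 1 and 2 had a ratio of 0.959. Measured gene by gene, the median shift from set 1-2 to set 3-4 was 0.06 log2 units among the controls and 1.00 among the knockouts, so the sets differed in the knockout libraries far more than in the controls. In bulk RNA, a larger share of cells in S phase and more histone message per cell cannot be told apart. The labels also do not say whether the close pairs of knockouts are separate cultures or separate preparations. The cause of the difference was not tested.

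**Figure D2:**
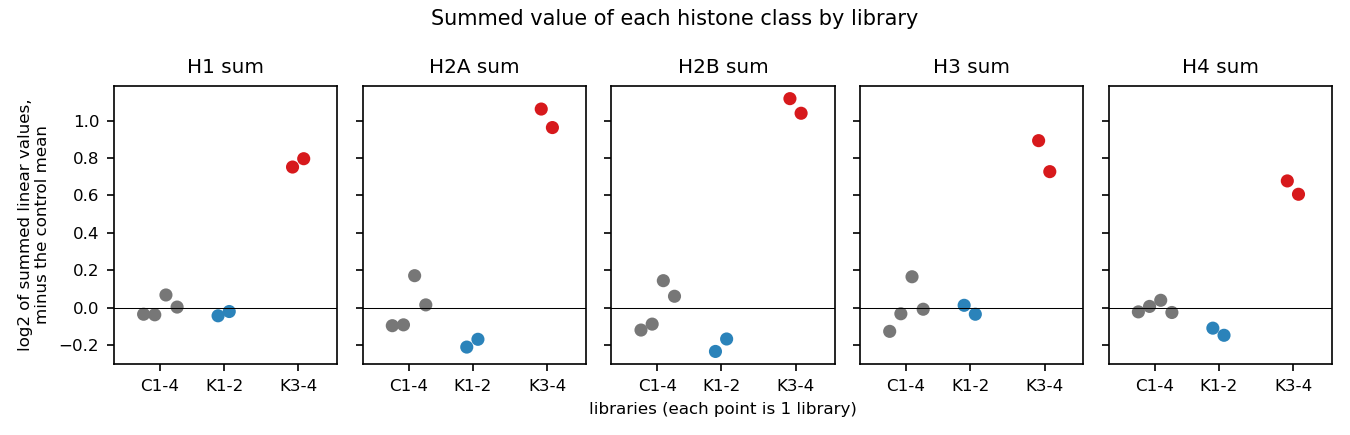
Each point is 1 library, and the vertical axis is the log2 of the summed linear values of the tested genes of a class, minus the mean of the 4 controls (C1-4). Knockouts 3 and 4 (K3-4, red) lie above all controls in each of the 5 classes, and knockouts 1 and 2 (K1-2, blue) lie within or below the range of the controls.

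Of 59 histone genes in the limma fit over all 8 libraries, 1 was called higher at a Benjamini-Hochberg adjusted p under 0.05 and none lower, while 7.02% of all tested genes were called higher and 6.1% lower. At an unadjusted p under 0.05 there were 17 higher (28.8%) and 0 lower, where 16% of all tested genes were higher. The direction was one-sided: 56 of 59 changes were above 0, with a median of 0.43, beside a median of 0.01 over all tested genes. The knockout values lay wholly above the control values for 14 of the 59 genes (23.7%), beside 12.5% of all tested genes.

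H3C2, an H3 gene at chr6:26031589-26032099, was the 1 gene called. It measured 7.32, 7.44, 7.54 and 7.43 in controls 1 to 4 and 7.71, 7.74, 8.35 and 8.35 in knockouts 1 to 4. The groups did not overlap, and knockouts 3 and 4 were the highest. The change was 0.61 ± 0.16 (SE, limma adjusted p = 0.0446, n = 4 per group), made of 0.35 in the first set of replicates and 0.87 in the second. The call was lost in 6 of the 8 fits that left out 1 library, with limma adjusted p-values from 0.0614 to 0.123: those without any 1 of the 4 controls and those without knockout 3 or knockout 4. It was also lost when each close pair of knockouts was averaged to 1 library (limma adjusted p = 0.128). In that fit no histone gene was called, 15 were higher and 0 lower at an unadjusted p under 0.05, and 1.2% of all genes were called. With the replicate number as a block, H3C2 was again the 1 call (limma adjusted p = 0.0388), and 10.2% of all genes were called. A limma fit with a term for the replicate set, which takes the difference between the sets out of the spread, called 13 histone genes, all higher, where 13.8% of all genes were called higher.

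Within replicates 3 and 4 the fit has 2 libraries on each side, and within such close pairs the residual spread is small. There limma called 53 of 59 histone genes higher and 0 lower (0 lower also at an unadjusted p under 0.05), where 15.7% of all tested genes were called higher and 17.4% lower. The changes ran from -0.12 to 1.98, and 58 of 59 were above 0. Both knockout values lay above both control values for 57 genes, beside 34% of all tested genes. The 6 genes without a call were H3C14, H2AC19, H2AC21, H3C6, H2BC12 and H4C11. Within replicates 1 and 2 limma called 5 histone genes higher, where 33% of all genes were, and 11 lower, where 26.6% were, and both counts are under the background. The 5 were H3C2, H2AC4, H4C1, H4C3 and H3C12, and the largest called falls were in H2BC11 (-0.40), H4C5 (-0.35) and H2AC14 (-0.28). The values of H3C14 (-3.39) and H2AC19 (-1.14) fell further without a call.

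The difference between the sets was tested with an interaction term in 1 limma fit of all 8 libraries. It was positive at a Benjamini-Hochberg adjusted p under 0.05 for 54 of 59 histone genes and negative for 0 (also 0 at an unadjusted p under 0.05), beside 18.4% and 22.9% of all tested genes. The median difference was 1.07 log2 units, beside -0.03 over all genes. H3C15 missed the threshold (0.44 ± 0.16 SE, limma adjusted p = 0.0542), as did H2BC12, H3C14, H3C6 and H2AC19. Leaving out 1 library at a time gave 49 to 54 genes. After removal of the part of each library's values that follows GC content and transcript length, 54 of the 56 histone genes with both properties passed. The plot of the change in one set against the other shows the histone genes in a column near 0 on the horizontal axis and spread upward.

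**Figure D3:**
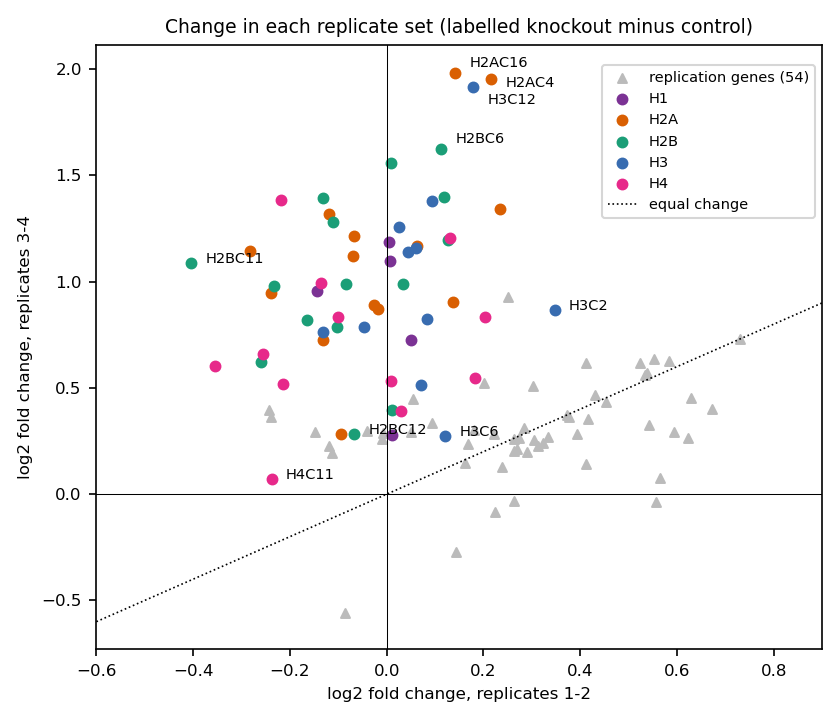
Each coloured point is a tested histone gene, by class, and each grey triangle 1 of 54 replication genes; the axes are the log2 fold change (knockout minus control) in replicates 1-2 and in replicates 3-4, and the dotted line marks equal change. Nearly all histone points lie above the line, led by H2AC16, H2AC4 and H3C12, and the replication genes lie around it; H2AC19 and H3C14, at -1.14 and -3.39 on the horizontal axis, are outside the frame.

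The 15 H2A genes with values, which encode the partner of H2B in the nucleosome's outer dimers, all passed the filter. In replicates 3 and 4, 13 rose, where 15.7% of all tested genes did, and the median change was 1.12, the highest of the 5 classes. The largest rise of the whole family was in H2AC16 (chr6:27865317-27865798), named here, like H2AC4, after its values were seen. It measured 4.28, 4.30, 4.42 and 4.46 in the controls, 4.33 and 4.54 in knockouts 1 and 2, and 6.44 and 6.41 in knockouts 3 and 4. Knockouts 1 and 2 thus lay in or just above the control range and knockouts 3 and 4 far above it: 3.95-fold over controls 3 and 4 (1.98 ± 0.08 SE, limma adjusted p = 2.97e-05). H2AC4 measured 5.02, 5.00, 5.21 and 5.07 in the controls, 5.23 and 5.21 in knockouts 1 and 2, and 7.09 and 7.10 in knockouts 3 and 4. Its difference between the sets, 1.74 ± 0.09 (SE), had a limma adjusted p of 1.84e-05. H2AC21 moved least over the 8 libraries. It measured 8.05, 8.06, 8.27 and 8.09 in the controls and 7.98, 7.95, 8.50 and 8.42 in the knockouts, a change of 0.28 in replicates 3 and 4 that did not pass (limma adjusted p = 0.0536) and a difference between sets of 0.38 that did (limma adjusted p = 0.0191).

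H2AC18 and H2AC19 are neighbouring copies on chromosome 1 and H2AC18 has the highest mean deposited value of the class over the 8 libraries; they have to be read together. H2AC18 measured 8.98, 8.94, 9.39 and 9.12 in the controls and 8.78, 9.60, 10.27 and 10.93 in the knockouts. H2AC19 measured 8.92, 8.92, 9.45 and 9.07 in the controls and 8.76, 6.79, 10.25 and 8.02 in the knockouts. The copies were within 0.1 of each other in the controls and in knockouts 1 and 3, and far apart in knockouts 2 and 4, where H2AC18 was the higher. Their sum was 9.95, 9.93, 10.42 and 10.10 in the controls, 9.77 and 9.80 in knockouts 1 and 2, and 11.26 and 11.11 in knockouts 3 and 4. The sum followed the pattern of the other H2A genes, with 1.90-fold in replicates 3 and 4 and 0.898-fold in replicates 1 and 2. The separate values of the copies, and the missing call of H2AC19, are therefore uncertain. The call of H2AC18 in replicates 3 and 4 (1.34, limma adjusted p = 0.0024) rests on the same split.

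**Figure D4:**
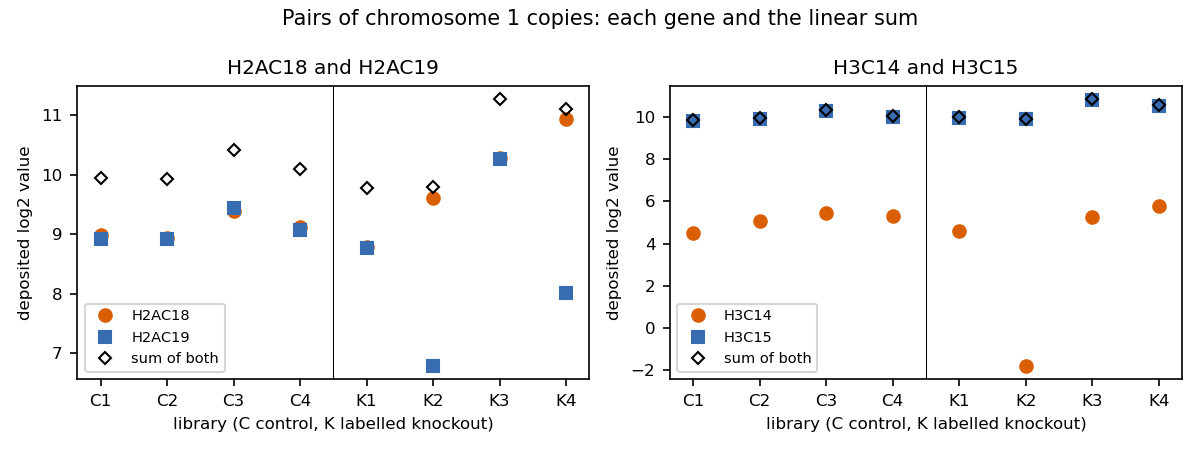
Deposited log2 values of H2AC18 and H2AC19 (left) and of H3C14 and H3C15 (right) in the 8 libraries (C control, K knockout by label), with open diamonds for the log2 of the summed linear values of both copies. H2AC18 and H2AC19 coincide except in K2 and K4, and H3C14 drops to -1.78 in K2, while both sums are highest in K3 and K4.

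H2B genes encode the partner of H2A in that dimer. In replicates 3 and 4, 14 of 15 rose, where 15.7% of all tested genes did, with a median of 0.99. In replicates 1 and 2, 3 of 15 fell, where 26.6% of all tested genes did. H2BC8 was chosen as the gene of the class with the highest mean deposited value over the 8 libraries. It measured 7.53, 7.49, 7.75 and 7.60 in the controls, 7.39 and 7.41 in knockouts 1 and 2, and 8.97 and 8.93 in knockouts 3 and 4. Knockouts 1 and 2 lay under all controls and knockouts 3 and 4 more than 1 log2 unit above them, so that the fit over 8 libraries gave 0.58 ± 0.38 (SE, limma adjusted p = 0.344) and the difference between sets 1.39 ± 0.10 (SE, limma adjusted p = 4.06e-05). H2BC6, which carries the stem-loop shown above, rose most of the class in replicates 3 and 4 (1.62, limma adjusted p = 1.11e-04). It measured 5.30, 5.44, 5.41 and 5.38 in the controls, 5.48 and 5.50 in knockouts 1 and 2, and 7.11 and 6.93 in knockouts 3 and 4. H2BC12 moved least. It measured 7.46, 7.45, 8.13 and 7.72 in the controls and 7.35, 7.44, 8.27 and 8.14 in the knockouts, with control 3 level with knockout 4, and passed no test (difference between sets 0.35 ± 0.17 SE, limma adjusted p = 0.125).

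H3 genes encode the histone that carries most of the known tail marks. In replicates 3 and 4, 10 of 12 rose, where 15.7% of all tested genes did, with a median of 0.85. In replicates 1 and 2, 2 of the 12 rose (H3C2 and H3C12) and none fell. Of all tested genes, 33% rose and 26.6% fell in that set. There 9 of 12 changes were above 0, beside 4872 of the 9016 tested genes. H3C12 measured 5.24, 5.21, 4.97 and 5.23 in the controls, 5.43 and 5.38 in knockouts 1 and 2, and 7.07 and 6.97 in knockouts 3 and 4. Every knockout value lay above every control, and the change was larger in replicates 3 and 4 (1.92) than in replicates 1 and 2 (0.18). H3C6, the H3 gene with the deviating stem-loop and a value in the lower part of the table, moved least: 1.21, 1.34, 1.36 and 1.32 in the controls and 1.41, 1.38, 1.71 and 1.52 in the knockouts. Its groups did not overlap, but no limma fit called it (0.20 ± 0.09 SE, adjusted p = 0.165 over 8 libraries).

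H3C15, with the highest mean deposited value of the class, and H3C14 lie in the chromosome 1 cluster. Their longest transcripts in GENCODE 29, of 1656 bases with a coding sequence of 411 bases, are identical. Reads from one cannot be told from reads of the other along that transcript, so the separate values of the copies are uncertain. H3C15 measured 9.80, 9.89, 10.29 and 9.99 in the controls and 9.93, 9.90, 10.79 and 10.51 in the knockouts, with knockouts 3 and 4 the highest. The change was 0.51 ± 0.13 (SE, limma adjusted p = 0.0203) in replicates 3 and 4. H3C14 measured 4.51, 5.09, 5.47 and 5.31 in the controls and 4.61, -1.78, 5.27 and 5.77 in the knockouts. The value of knockout 2 stood alone, and it makes up the change of -3.39 in replicates 1 and 2, which limma did not call (adjusted p = 0.145). The sum of both genes was set by H3C15 and rose 1.42-fold in replicates 3 and 4 (1.03-fold in replicates 1 and 2).

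H4 genes, which all encode the same or nearly the same protein, rose least as a class. In replicates 3 and 4, 11 of 12 rose, where 15.7% of all tested genes did, with a median of 0.63, or 1.55-fold. In replicates 1 and 2, 2 rose and 5 fell, where 33% of all tested genes rose and 26.6% fell. H4C14 had the highest mean deposited value. It measured 9.23, 9.24, 9.20 and 9.14 in the controls, 9.05 and 8.91 in knockouts 1 and 2, and 9.90 and 9.76 in knockouts 3 and 4. It fell in one set (-0.26, limma adjusted p = 0.0113) and rose in the other (0.66, limma adjusted p = 0.00179). H4C15 shares its coding sequence, all 312 bases, and its promoter window, and the sum of both moved alike, 0.841-fold and 1.56-fold. H4C13 rose most of the class (1.39 in replicates 3 and 4): 6.46, 6.63, 6.74 and 6.59 in the controls, 6.26 and 6.39 in knockouts 1 and 2, and 8.01 and 8.09 in knockouts 3 and 4. H4C11 moved least over 8 libraries. It measured 7.98, 8.08, 8.08 and 8.18 in the controls and 7.85, 7.74, 8.21 and 8.20 in the knockouts, a change of 0.07 in replicates 3 and 4 that did not pass (limma adjusted p = 0.56), while the set difference of 0.31 did (limma adjusted p = 0.0345). Its coding sequence is the same as that of H4C12, so the split of reads between these 2 genes is uncertain as well.

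All 5 tested H1 genes, which encode the linker histone that binds DNA between nucleosomes, rose in replicates 3 and 4, with a median of 0.96. Of all tested genes, 15.7% rose in that set. H1-4 had the highest mean deposited value and moved least: 8.21, 8.26, 8.52 and 8.40 in the controls and 8.23, 8.26, 8.75 and 8.73 in the knockouts. It changed by 0.01 in the first set of replicates and by 0.28 in the second (limma adjusted p = 0.0407). H1-5 moved most: 7.66, 7.68, 7.82 and 7.70 in the controls, 7.67 and 7.68 in knockouts 1 and 2, and 8.92 and 8.97 in knockouts 3 and 4. Knockouts 1 and 2 matched controls 1 and 2 to within 0.01, and knockouts 3 and 4 were 2.27-fold above controls 3 and 4.

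The 3 genes below the filter did not share one pattern. H3C3 measured 1.57, 1.42, 1.61 and 1.67 in the controls and 2.35, 2.15 and -4.26 in knockouts 1 to 3, and was blank in knockout 4. It was thus highest in knockouts 1 and 2 and lowest in the set where the other histone genes were raised (exact two-sided permutation test over the 7 values, p = 0.771). The knockout side of replicates 3 and 4 is a single library for this gene, so no test of the set difference is given. H2BC3 measured between -4.15 and -1.04 in the controls and between -1.41 and -0.74 in the knockouts (exact permutation p = 0.0857). H1-6, known as a testis-specific linker histone, stayed at -2.92 or below in every library with a value (exact permutation p = 0.371).

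By position, 48 tested genes lie on chromosome 6 and 11 on chromosome 1. In replicates 3 and 4, 45 of the 48 and 8 of the 11 rose, where 15.7% of all tested genes did, with medians of 0.99 and 0.66. The difference between the chromosomes was not tested, and 6 of the 11 chromosome 1 genes belong to the copy pairs named above or to H4C14 and H4C15. Genes of a class are alike in general. The closest same-length relative shared a median of 90.4% of coding bases for H2A genes, 93.2% for H2B, 88.1% for H3 and 89.1% for H4. The H3 and H4 medians include the identical copies. How reads that match several genes were assigned is not given in the sources used here, so values of single genes are less certain than the sums of a class.

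Head-to-head neighbours moved in the same direction in replicates 3 and 4. So did nearly the whole family, with 58 of 59 changes above 0, and genes that are not neighbours were not compared. H2AC7 and H2BC7, around the first of the promoter stretches shown, changed by 1.17 and 1.39. H2AC14 and H2BC14 changed by 1.14 and 1.56. H2AC15 and H2BC15, around the third stretch, changed by 1.32 and 0.40, the widest gap of the 9 pairs. H2AC15 measured 3.43, 3.55, 3.47 and 3.35 in the controls, 3.31 and 3.43 in knockouts 1 and 2, and 4.79 and 4.66 in knockouts 3 and 4. H2BC15 measured 6.29, 6.35, 6.25 and 6.43 in the controls, 6.31 and 6.36 in knockouts 1 and 2, and 6.74 and 6.73 in knockouts 3 and 4. Both were highest in the same 2 libraries, by different amounts. H2AC13 and H2BC13, the other pair without the octamer letters, changed by 0.91 and 0.99. The neighbours H2AC12 and H2BC12, not among the 9 pairs because H2AC12 had no window, changed by 1.21 and 0.28. The window of H2BC12 holds an octamer, so a wide gap was not particular to neighbours without one. Among the H2A genes with a window, the median change in replicates 3 and 4 was 1.03 for the 10 with an octamer and 1.11 for the 4 without. Among the H2B genes it was 1.14 for 12 and 0.62 for 3, so the direction differed between the classes. The H4 genes, with no octamer in any window, rose as well.

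**Figure D5:**
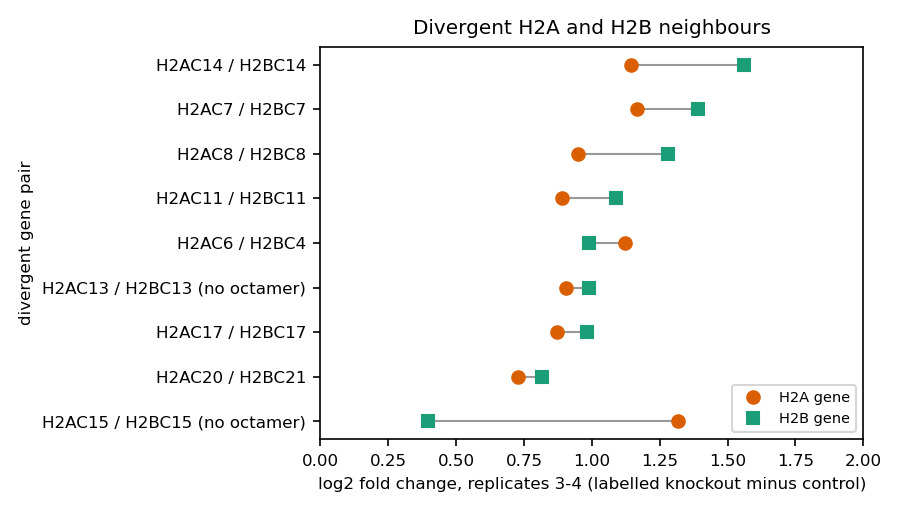
Each line joins the log2 fold changes in replicates 3-4 (horizontal axis, knockout minus control) of an H2A gene (circle) and the H2B gene that starts back to back with it (square). Both changes lie above 0 in all 9 pairs, as do 58 of the 59 changes of the family. The H2B gene is the higher in 7, and H2AC15 with H2BC15 has the widest gap drawn (1.32 and 0.40). Only genes with a promoter window were paired, so the neighbours H2AC12 and H2BC12 (1.21 and 0.28) are not drawn.

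The genes that control histone expression were read from a list of 27, of which 24 were tested. Over 8 libraries 4 rose (16.7%) and none fell (1 lower at an unadjusted p under 0.05), where 7.02% of all tested genes rose and 6.1% fell. The 4 were CCNE1 and CCNE2, the E cyclins that start S phase, CDK2, their kinase, and E2F1, a transcription factor of S-phase genes. Their changes were 0.55, 0.54, 0.40 and 0.28, with limma adjusted p-values of 0.0297, 0.00426, 0.0396 and 0.0248. Between the sets, 2 of the 24 differed upward (8.33%) and 6 downward (25%), beside 18.4% and 22.9% of all tested genes. Leaving out control 1, 2 or 4 left 1 call in the list, leaving out knockout 2 or 3 left 2, and averaging the knockout pairs left 1. With the replicate number as a block, 3 rose and 1 fell: E2F1 no longer passed (limma adjusted p = 0.0538), and TUT7, a uridylyltransferase, did with a change of -0.47 (limma adjusted p = 0.0285).

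SLBP measured 5.37, 5.39, 5.34 and 5.43 in the controls, 5.65 and 5.64 in knockouts 1 and 2, and 5.40 and 5.30 in knockouts 3 and 4. It was highest in knockouts 1 and 2, and level with the controls in knockouts 3 and 4 where the histone genes were raised. Its set difference of -0.30 ± 0.09 (SE, limma adjusted p = 0.0315) was opposite in sign to that of the histone genes. NPAT measured 1.66, 1.62, 1.73 and 1.79 in the controls and 1.90, 1.93, 1.97 and 1.85 in the knockouts, with no overlap. Its change of 0.21 did not pass (limma adjusted p = 0.0657), nor did its set difference of -0.13 (limma adjusted p = 0.29).

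A list of 54 genes of DNA replication shows how the machinery of S phase moved. Of them 24 rose and none fell over 8 libraries (0 lower at an unadjusted p under 0.05), where 7.02% of all tested genes rose. CCNE1, CCNE2, E2F1 and SLBP are in this list as well. The largest rises were in RRM2, a subunit of the enzyme that makes deoxynucleotides (0.73, limma adjusted p = 0.00696), TK1, the S-phase thymidine kinase (0.61, limma adjusted p = 0.0179), ORC6, of the origin recognition complex (0.60, limma adjusted p = 0.00219), and POLE2, a subunit of DNA polymerase epsilon (0.57, limma adjusted p = 0.00185). RRM2 measured 4.32, 4.27, 4.63 and 4.54 in the controls and 5.03, 5.03, 5.28 and 5.35 in the knockouts, above every control in each knockout library. The median of the list was 0.29 in each set. Its set differences had a median of -0.0016, with 8 genes up and 8 down (14.8% each), beside 18.4% and 22.9% of all tested genes. Calls in the list fell from 24 to 9, 8 and 11 without control 1, 2 or 4, to 14 and 15 without knockout 2 or 3, and to 3 with averaged knockout pairs.

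Of 24 tested histone chaperones and deposition factors, 6 rose (25%) and none fell (0 lower at an unadjusted p under 0.05), where 7.02% of all tested genes rose. Among the 6, the largest changes were in CHAF1B, of the CAF-1 complex that places histones on new DNA (0.63, limma adjusted p = 0.0296), ASF1B, which hands H3 and H4 to it (0.63, limma adjusted p = 0.0165), CDAN1 (0.38, limma adjusted p = 0.0398) and HAT1, which acetylates new H4 (0.29, limma adjusted p = 0.0244). No call was left without control 1, 2 or 4 or with averaged pairs, 1 without knockout 3, 3 without knockout 1 or 2, and 3 with the replicate number as a block.

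Histone genes known as replication-independent were listed apart, and 12 of 15 were tested, with a median change of 0.08 in replicates 3 and 4. The sets differed for 3 of the 12 upward (25%) and for 2 downward (16.7%), near the 18.4% and 22.9% of all tested genes. H2AZ1, the gene of the variant H2A.Z, differed by -1.02 and CENPA, the centromeric H3, by -0.29, while H2BU1 differed by 1.35, H2AJ by 0.38 and H3-3A, which encodes H3.3, by 0.29. H2BU1 has an uncertain place in this list, since RefSeq names it H2BC26, a symbol of the replication-dependent form that the deposited table does not use. It measured 4.94, 5.05, 4.74 and 4.96 in the controls, 4.69 and 4.89 in knockouts 1 and 2, and 6.06 and 5.93 in knockouts 3 and 4, the pattern of the H2B genes above. H2AZ1 was highest in knockouts 1 and 2 (8.39 and 8.38) and lowest in knockouts 3 and 4 (7.48 and 7.30), with the controls between (7.87 to 8.06).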

How the data were processed

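Total RNA from 143B cells was extracted with TRIzol and sequenced from Illumina TruSeq Stranded Total RNA libraries, per the labels' protocols, which name no step of poly(A) selection. The submitters' processing notes name bcl2fastq, Partek 7.0 and GRCh38, and the aligner, the counter, the annotation and the handling of reads that match several genes are not given in the sources used here. The authors deposited log2 values, 1 per symbol and library, whose distribution was the same in every library, so they had been quantile normalized. A change in total RNA output cannot be seen in such values. Blank cells were treated as missing.

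Groups and replicate numbers came from the titles. Genes with 8 values and a mean of at least 1 entered a linear model in limma 3.58.1 under R 4.3.3 (moderated by eBayes, knockout minus control, no covariate), with Benjamini-Hochberg adjustment over all 9016 tested genes and calls under 0.05. The difference between replicates 1-2 and 3-4 was an interaction term. Genes under the filter were compared by exact two-sided permutation tests, whose smallest possible p was 0.0286. The code of the fits was run on simulated data in which all libraries varied independently. That run had no close pairs of knockouts, so it cannot show how the fits behave with them. The members and lists were chosen with earlier results of these data known, the split into replicate sets among them. Every library's value is printed for called members (at most 3 per class), for the member of each class with the highest mean and for the one with the smallest change; of the other lists, at most 4 called genes are named, with SLBP and NPAT. Other genes were named after their values were seen. A called gene of these lists is not reported here.

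Alternatives were no filter, a mean of at least 3, a pseudocount of 1 on the linear scale, median centring, a variance trend, a replicate block, a term for the replicate set, averaged knockout pairs, each set alone and leaving out each library. A correction for GC content and length, and the repeats of the set difference, were added after the data were seen. Same-numbered libraries deviated together from their group means (correlation across genes 0.237, 0.274, 0.289 and 0.195 for numbers 1 to 4). Differently numbered libraries of the same set did so as well (0.113 to 0.315), so these correlations do not single out the number from the set. Controls and knockouts of different sets deviated in opposite directions (-0.3041 to -0.1455), so the controls share part of the split between the sets. The main fit ignored the numbers, and the replicate block was an alternative only. Sequences came from RefSeq GRCh38.p14 promoter windows and GENCODE 29 transcripts.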

Additional observations from a re-analysis of the deposited data

Results flagged for a closer look

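The 62 histone genes were examined in each group of 4 libraries in which they had 4 values. The highest or lowest value was flagged when its gap to its nearest neighbour took up most of the range of the group. Class sums were not examined. Of 122 groups examined 3 stood out, and chance flags about 1 in 20 groups. H3C14 was at -1.78 in knockout 2, where the other 3 knockouts lay between 4.61 and 5.77. H2BC13 was at 6.55 in control 4, where the other controls lay between 6.37 and 6.40. H3C12 was at 4.97 in control 3, where the others lay between 5.21 and 5.24, and every knockout value of H3C12 was above all controls.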

How the results depend on the processing

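The count of called histone genes (1 over all 8 libraries) was 0 with no filter (9 at an unadjusted p under 0.05), 2 with a mean of at least 3, 2 with a pseudocount of 1, 2 with a variance trend, 13 with a term for the replicate set, 0 with averaged knockout pairs, 16 in replicates 1-2 alone, 53 in replicates 3-4 alone and 0 after the GC and length correction (4 at an unadjusted p under 0.05). It was 0 to 4 with 1 library left out, with 4 calls without knockout 1, 3 without knockout 2 and 0 in the other 6 fits. With the replicate block it was 1, again H3C2 (limma adjusted p = 0.0388). That fit gave 3 calls among the chaperones in place of 6. The median change (0.43) was reversed in replicates 1-2 alone (-0.017) and ran from 0.27 to 0.62 with 1 library left out. The count of genes that differed between the sets (54) was 50 to 55 under the other settings and 49 to 54 with 1 library left out. The 50 came with no filter, where 49 had the larger change in replicates 3-4. The other was H3C3, which went the opposite way and has a single knockout library in that set, so it is not read as a result. Single changes over 8 libraries that turned were those of H2AC14 (-0.28), H2AC15 (-0.12), H2AC21 (-0.094), H2BC8 (-0.11), H2BC12 (-0.067), H4C13 (-0.22) and H4C14 (-0.26) in replicates 1-2 alone and of H3C14 (0.13), H4C11 (0.071) and SLBP (-0.033) in replicates 3-4 alone. With 1 library left out, H2AC21 ran from -0.0023 to 0.18, H2BC12 from -0.050 to 0.26, H3C14 from -2.39 to 0.12 and H4C11 from -0.15 to 0.0011. The causes were not tested, and the depth of the libraries, which is unknown, limits the low values.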
